A study of Mus musculus with 9 samples.

Results

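The ADAM and ADAMTS families were followed across 9 RNA sequencing libraries from the infarct border zone, all of them from the immunodeficient mouse strain NOD-SCID. The members are the genes whose mouse symbol is Adam or Adamts followed by a number, or Adamtsl followed by a number. They came to 57 of the 53465 genes in the count files: 33 Adam genes, 19 Adamts genes and 5 Adamtsl genes. Per the labels, 3 libraries came from hearts after sham surgery, 3 from hearts after coronary artery ligation, and 3 from ligated hearts that also received FOXO3-GE-MPCs. The time after surgery, the age and sex of the mice, and how the implanted cells were made are not given in the sources used here. For cell replicates 2 and 3 the source field names FOXO4 and FOXO5, and the title and treatment, which name FOXO3, were followed. The file headers give sham replicates 1 and 2 one shared name stem and ligation replicates 2 and 3 another. Their counts differed by more than sampling noise, so all 9 libraries were kept, but nothing states that they are separate animals, and p-values measure the spread between these libraries.

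ADAM proteins are membrane-anchored enzymes with a metalloprotease and a disintegrin domain. Their catalytic members cut the outer parts of growth factors, cytokine receptors and adhesion molecules from the cell surface, a step called shedding, while others have lost the catalytic site and act as receptors. ADAMTS enzymes are secreted and carry thrombospondin repeats, with which they bind the extracellular matrix. They trim procollagens and cut proteoglycans such as versican, which makes up part of the provisional matrix of a healing heart. ADAMTS-like proteins share the repeats but lack the protease domain and sit on fibrillin microfibrils. TIMP proteins inhibit many of these enzymes.

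The members divide at the DNA level by whether they code for the zinc-binding site of the protease. In the longest complete coding sequence of each gene (GENCODE M21, GRCm38) the site was searched as a histidine codon followed by a glutamate codon, another histidine codon after any 2 codons, and a last histidine codon after any 5 codons. It was found in 39 of the 57 members and in none of the 5 Adamtsl genes, nor in Adam11, Adam22 and Adam23, nor in 10 of the 21 reproductive ADAM genes. The sites of members that the results turn on are shown 5′ to 3′ to show what they share, with capitals marking the 3 histidine codons and a codon that varies among the proteoglycan-cleaving ADAMTS genes. A coordinate range over 33 bases means that the site spans an intron.
Adam8 (chr7:139987893-139987925, minus strand): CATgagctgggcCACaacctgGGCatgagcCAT
Adam9 (chr8:24990326-24990358, minus strand): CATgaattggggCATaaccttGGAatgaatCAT
Adam12 (chr7:133961158-133961190, minus strand): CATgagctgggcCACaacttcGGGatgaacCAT
Adam19 (chr11:46125050-46125082, plus strand): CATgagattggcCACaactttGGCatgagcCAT
Adamts2 (chr11:50775403-50776134, plus strand): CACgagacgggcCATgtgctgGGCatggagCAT
Adamts1 (chr16:85799191-85799545, minus strand): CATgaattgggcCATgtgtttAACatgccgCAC
Adamts9 (chr6:92905285-92908493, minus strand): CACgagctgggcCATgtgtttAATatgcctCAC
Adamts20 (chr15:94353678-94355296, minus strand): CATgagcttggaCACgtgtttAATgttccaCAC
Adamts8 (chr9:30952721-30953378, plus strand): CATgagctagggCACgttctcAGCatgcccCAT
The marked middle codon codes for glycine in 33 of the 39 members, among them every ADAM with the site and the procollagen-trimming enzymes. It codes for asparagine in 5 members, Adamts1, Adamts4, Adamts9, Adamts15 and Adamts20, and for serine in Adamts8 alone. All 6 belong to the 7 proteoglycan-cleaving ADAMTS genes, of which Adamts5 has glycine.

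A mean of at least 0.5 CPM (counts scaled by library size and TMM factors to a common total) over the 9 libraries was reached by 33 members. The members just inside that minimum were Adamts17 at 0.879 CPM and Adamts4 at 1.57 CPM, and the one just outside was Adam5 at 0.369 CPM. By class, those that reached it were 8 of 9 membrane ADAMs with an active site, 3 of 3 without one, 7 of 7 proteoglycan-cleaving ADAMTS genes, 3 of 3 procollagen-trimming genes, 6 of 9 other ADAMTS genes and 5 of 5 Adamtsl genes. Of 21 ADAM genes known from testis and other reproductive tissue, only Adam1a reached it. Adam1a is uncertain, since 78.4% of its 31-base words occur in other genes and 63.7% of its exon bases lie in overlapping genes.

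The other 24 members lay below 0.5 CPM. No read in any library was counted for 14 of them: Adam6a, Adam6b, Adam7, Adam18, Adam20, Adam24, Adam25, Adam26a, Adam26b, Adam28, Adam29, Adam30, Adam34 and Adam39. In a single library, 3 counts, the number that a count of 0 still allows, correspond to 0.375 to 0.639 CPM. The remaining 10 had few reads in all 9 libraries together: Adam5 22, Adamts18 20, Adam32 18, Adam4 17, Adamts16 4, Adam2 and Adam21 3 each, Adamts13 2, and Adam1b and Adam3 1 each. Adam32 counts were 0, 0 and 0 in sham, 5, 1 and 7 after ligation, and 3, 1 and 1 with cells. All its reads were in ligated hearts. The gene lies 0.806 kb from Adam9, whose own level was higher in those hearts, and a link between these levels was not tested. Adamts13 encodes the enzyme that cuts von Willebrand factor in plasma.

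Summed over the 57 members, reads came to 864 to 914 CPM in sham, 1088 to 1154 CPM after ligation and 1068 to 1107 CPM with cells per library. Per kilobase of exon, the highest levels in sham were those of Adamtsl5 at 21.6 ± 1.54 CPM per kb (SD, n = 3) and Adam15 at 21.4 ± 0.969, which did not differ beyond their spread. Adam10 at 15.1 ± 0.69, Adam9 at 14.5 ± 0.869 and Adamts1 at 12.2 ± 0.515 CPM per kb followed. After ligation Adam9 stood first at 31.6 ± 1.77 CPM per kb, and with cells it was at 26.9 ± 0.621, beside Adamtsl5 at 25.8 ± 1.06. Among the 33 members at or above 0.5 CPM, the lowest levels per kb in sham were those of Adamts20 at 0.105 ± 0.0384 and Adamts17 at 0.141 ± 0.0717. The level of Adam12, named as a marker of the families together with Adamts1, was 0.197 ± 0.107 CPM per kb in sham and 0.522 ± 0.053 after ligation.

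The libraries carried the markers of heart muscle: Myh6, Actc1, Tnnt2, Tnni3, Ryr2 and Pln summed to 36722 to 38521 CPM in sham, 30741 to 31733 CPM after ligation and 29942 to 30517 CPM with cells, and none was at 0. Libraries held 4549268 to 7515052 gene counts, and the common biological coefficient of variation was 0.0726. Mitochondrially encoded genes took 19.1 to 19.9% of gene counts in sham, 12.5 to 13.9% after ligation and 14.3% in each library with cells, and TMM factors were 0.919 to 0.928 in sham and 1.03 to 1.07 in ligated hearts. Cartilage and tendon markers summed to 11.4 to 12.9 CPM in sham, 19.4 to 21.1 CPM after ligation and 21.2 to 24.97 CPM with cells, and skeletal muscle markers to 0.356 to 0.952, 4.26 to 5.88 and 0.142 to 0.277 CPM. The cartilage and tendon genes did not all move with their sum. Chad was at 1.38 ± 0.473 CPM (SD, n = 3) in sham, 0.402 ± 0.406 after ligation and 2.61 ± 1.46 with cells, and Col2a1 was at group means of 0, 0.507 and 0.187 CPM. The part of these differences in the members' levels was not tested.

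**Figure D1:**
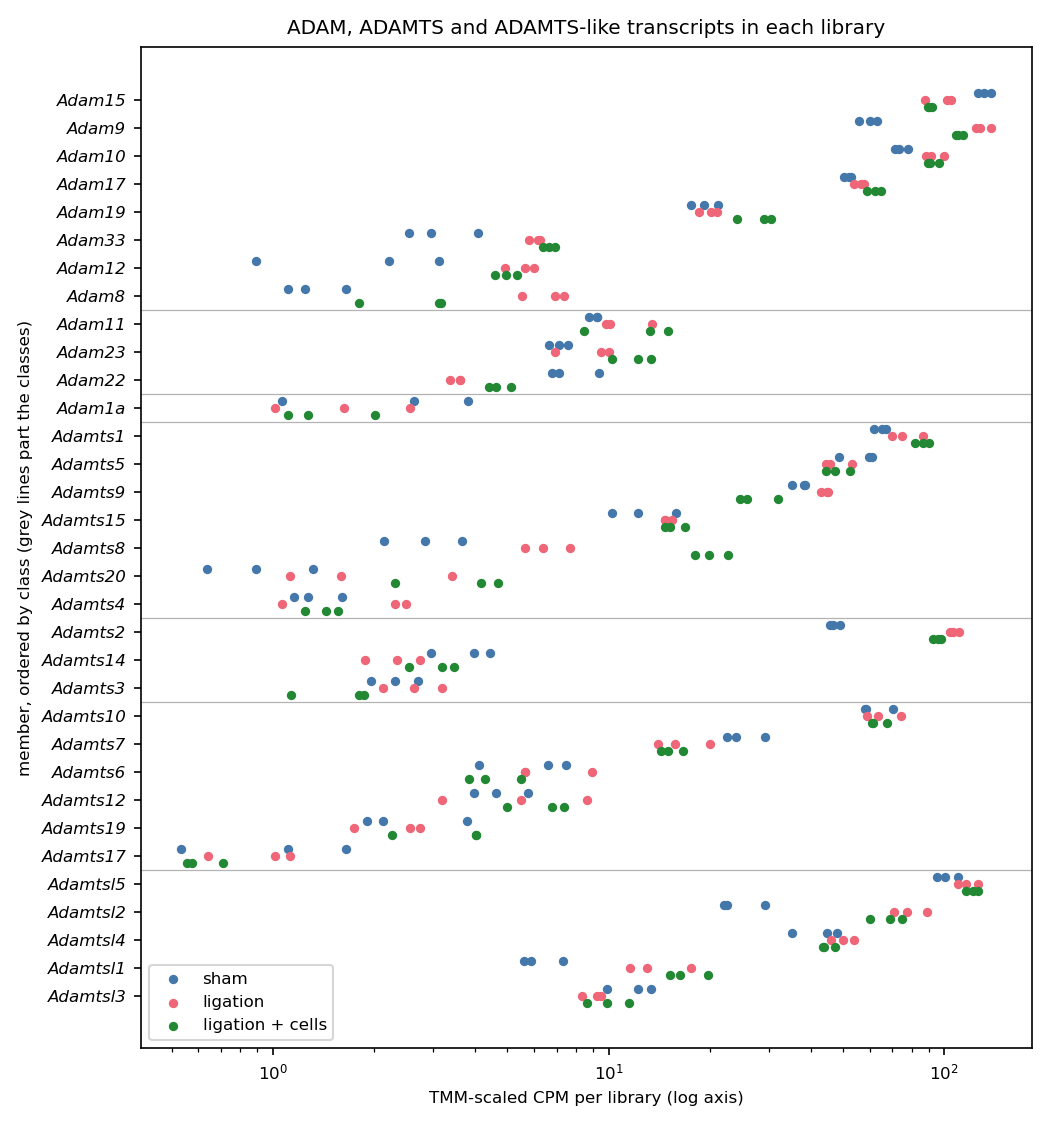
TMM-scaled CPM of the 33 members at or above 0.5 CPM, 1 point per library on a log axis, in class order. The 3 groups of Adam8 and of Adamts8 do not overlap, and the sham libraries of Adamtsl2, Adam9 and Adamts2 lie below all others of the same gene.

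Ligation was compared with sham to see which members' transcripts differ in the border zone after the artery is closed. A group of 12 members rose and 3 fell among the 32 tested, which is 46.9%, beside 38.2% of all 13825 genes tested in this comparison (adjusted p under 0.05 in edgeR's quasi-likelihood fit, p-values adjusted by Benjamini and Hochberg's method over every gene tested). The members that rose were Adam8, Adamtsl2, Adam12, Adamts2, Adamts8, Adamtsl1, Adam9, Adam33, Adam10, Adamts9, Adamts1 and Adamtsl5. Adam22, Adamts7 and Adam15 fell. Of all genes tested, 20.1% were higher and 18% lower. The median log2 fold change of the tested members was 0.23, beside 0.01 over all genes tested. A filter on low counts came first, and Adam8, Adam12, Adamts3, Adamts4, Adamts20 and Adam1a fell short of its minimum in at least 1 library, so counts over tested members are not free of it. CPM ranges of the groups did not overlap for 18 of the 32 members, which is to be read against 47.6% of all tested genes. With library totals in place of TMM factors the median gene moved to 0.20, the higher and lower genes numbered 4966 and 1346 in place of 2783 and 2494, and 17 members were higher and 3 lower. Each change is therefore relative to the median gene under TMM factors.

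Hearts with implanted cells were compared with ligated hearts to see which members differ where cells were implanted. Of the 32 members tested, 2 rose, Adamts8 and Adam19, and 3 fell, Adam8, Adamts9 and Adam9. That is 15.6% of members, beside 9.87% of all genes tested. Of all genes, 4.19% were higher and 5.69% lower. The median log2 fold change was 0.03 over the members and 0.00 over all genes, and 12 members had ranges that did not overlap, against 27.2% of all genes. The other 27 tested members did not pass the test, with log2 fold changes from -0.74 (Adamts3) to 0.97 (Adamts20), so a difference in them was not detectable with 3 libraries a group. A p above the threshold does not show that levels were alike.

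Against sham, the hearts with cells had 15 members that rose and 4 that fell, 59.4% of those tested beside 40.9% of all genes. Of all genes 21% were higher and 20% lower, and the median log2 fold change was 0.30 over the members and -0.01 over all genes. Library totals alone gave 4612 higher and 1698 lower genes in place of 2899 and 2762. Ranges did not overlap for 20 members, against 49.8% of all genes. All 3 comparisons share libraries, so their values for a member are given side by side and are not independent of each other. In tissue RNA, fewer cells of a type and less RNA per cell cannot be told apart.

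**Figure D2:**
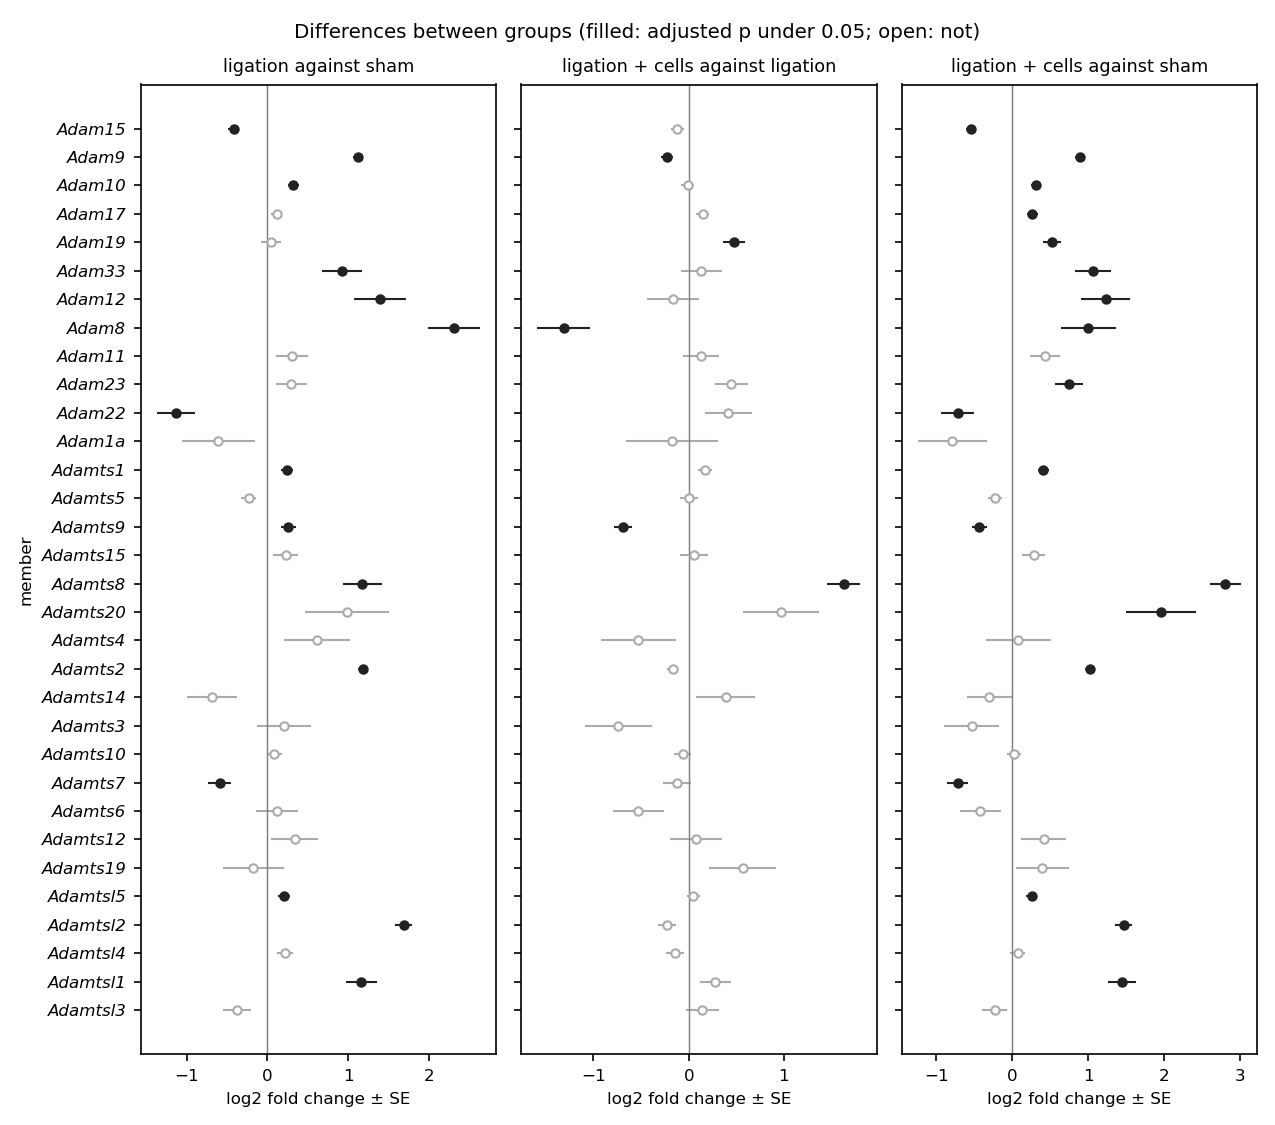
Log2 fold change with its standard error (bars) for the 32 tested members in the 3 comparisons, with filled points past an adjusted p of 0.05. Adamts8 lies right of 0 in all 3 panels, and Adam8 and Adamts9 lie right of 0 after ligation and left of 0 with cells against ligation.

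Among the membrane ADAMs with an active site, Adam8 had the largest fold change after ligation of any member. Adam8 (ENSMUSG00000025473, chr7:139978932-139992562, GRCm38), a protease known from leukocytes, was at 1.25, 1.65 and 1.11 CPM in sham, 5.54, 6.95 and 7.38 CPM after ligation and 3.12, 1.8 and 3.17 CPM with cells. Every ligation library lay above every sham library, and the cell libraries lay below the ligation libraries and above the sham libraries. The rise after ligation was 4.96-fold (log2 fold change 2.31 ± 0.325 (SE), adjusted p = 8.46e-06). Its sham values rest on 7, 10 and 7 counts. With cells the level was 2.48 times lower than after ligation (log2 fold change -1.31 ± 0.278 (SE), adjusted p = 0.00349). Against sham it was 2.0-fold higher with cells (log2 fold change 1.002 ± 0.366 (SE), adjusted p = 0.0339), a call that was lost with DESeq2 (adjusted p = 0.0638), with libraries of one header stem summed (adjusted p = 0.0535), and without cell replicate 1 (0.108), cell replicate 3 (0.11), sham replicate 1 (0.0818) or sham replicate 3 (0.106, adjusted p in each case).

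Macrophage markers moved with Adam8 in the first 2 of these comparisons. The 6 genes of that list (Cd68, Adgre1, Csf1r, Fcgr1, C1qa, Mrc1) summed to 287 to 309 CPM in sham, 432 to 457 CPM after ligation and 172 to 183 CPM with cells. In ligation against sham 5 of 6 rose, and with cells against ligation 6 of 6 fell, among them Adgre1 by 1.69 on the log2 scale (adjusted p = 3.26e-08). None of the 6 was at 0. Against sham the markers stood lower with cells, where 5 of 6 fell, while Adam8 stood higher. Neutrophil markers summed to 36.2 to 44.1 CPM in sham, 12.8 to 20.1 CPM after ligation and 5.47 to 6.1 CPM with cells. Of the 5 neutrophil genes 3 were tested. After ligation 2 of these fell, and Csf3r was at 0.64 on the log2 scale (adjusted p = 0.116), the direction of Adam8. With cells against ligation 3 of 3 fell. The part of these cells in the levels of Adam8 was not tested.

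**Figure D3:**
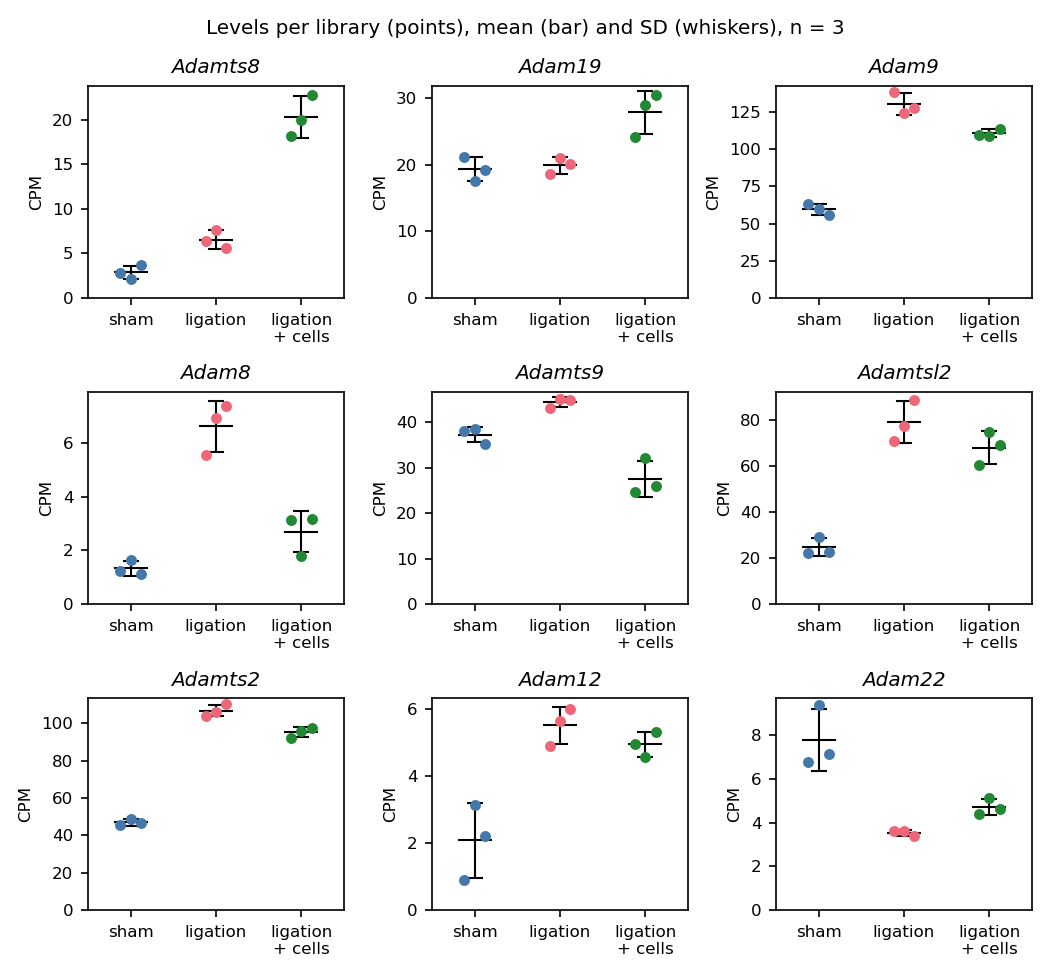
CPM of 9 members in each library (points) with the group mean (bar) and SD (whiskers), n = 3, on linear axes that start at 0. Adamts8 steps up from sham to ligation to cells, Adam8 and Adamts9 are highest after ligation, and Adam19 is set apart with cells.

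Adam9 (ENSMUSG00000031555, chr8:24949611-25016927), a widely expressed sheddase, rose after ligation. Its levels were 63, 59.97 and 55.9 CPM in sham, 138, 124 and 128 CPM after ligation and 109.8, 109 and 114 CPM with cells. Ligation libraries were all above the cell libraries, and those were all above sham. The epicardial and mesothelial markers had the same order of groups in sum, with 172 to 216 CPM after ligation, 149.5 to 158 CPM with cells and 29.05 to 39.7 CPM in sham. Of the 4 genes in that list, 4 rose after ligation, and with cells against ligation 1 fell and 3 did not pass. Of the macrophage markers 5 of 6 rose after ligation and 6 of 6 fell with cells against ligation. The part of either list in the level of Adam9 was not tested. The rise after ligation was 2.18-fold (log2 fold change 1.12 ± 0.0666 (SE), adjusted p = 3.2e-11), and with cells the level fell by 0.23 against ligation on the log2 scale (SE 0.0624, adjusted p = 0.0205). The fall with cells lost its call without ligation replicate 1 (adjusted p = 0.073), cell replicate 1 (0.0762) or cell replicate 2 (0.0713). Against sham Adam9 stayed higher with cells (log2 fold change 0.89 ± 0.0667 (SE), adjusted p = 9.68e-10).

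Adam19 (ENSMUSG00000011256, chr11:46055992-46147343), known from the forming heart valves and septa, rose with cells against both other groups. Its levels were 21.2, 17.6 and 19.2 CPM in sham, 18.5, 21 and 20.1 CPM after ligation and 24.1, 29 and 30.4 CPM with cells. Sham and ligation libraries overlapped, and all cell libraries lay above both. The cardiac atrium markers were also highest with cells, at 974 to 1021 CPM in sum against 405 to 449 CPM in sham and 277 to 316 CPM after ligation, and their part in the level of Adam19 was not tested. Against ligation it was 1.39-fold higher (log2 fold change 0.48 ± 0.116 (SE), adjusted p = 0.0102), and against sham 1.44-fold (log2 fold change 0.53 ± 0.118 (SE), adjusted p = 0.00118). The call against ligation was lost without cell replicate 3 (adjusted p = 0.0603). Ligation alone gave 0.05 (adjusted p = 0.789) on the log2 scale. Genes on the opposite strand overlap 10.1% of its exon bases, and the strand setting of the counting is not given in the sources used here.

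Adam12 (ENSMUSG00000054555, chr7:133883199-134232146), which can shed heparin-binding EGF-like growth factor, was at 0.89, 3.13 and 2.22 CPM in sham, 4.9, 5.64 and 6.0 CPM after ligation and 4.96, 4.58 and 5.33 CPM with cells. Every library of ligated hearts, with or without cells, lay above every sham library, whose own values were widely spread. It rose 2.63-fold after ligation (log2 fold change 1.40 ± 0.321 (SE), adjusted p = 0.00162) and was 2.34-fold above sham with cells (log2 fold change 1.23 ± 0.323 (SE), adjusted p = 0.00442). Between ligation and cells the log2 difference was -0.17 (adjusted p = 0.773). Adam33, a fibroblast and smooth muscle protease in other organs, was at 4.09, 2.97 and 2.54 CPM in sham, 6.18, 5.79 and 6.25 CPM after ligation and 6.38, 6.94 and 6.63 CPM with cells. Sham lay below both other groups, with log2 fold changes of 0.93 (adjusted p = 0.00514) after ligation and 1.06 (adjusted p = 0.00137) with cells against sham.

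The general sheddases moved less. Adam10, which starts Notch cleavage at the cell surface, was at 71.5, 73.3 and 78.1 CPM in sham, 100.1, 91.2 and 88.3 CPM after ligation and 96.2, 91 and 89.3 CPM with cells. All sham libraries lay below all others, with a log2 fold change of 0.32 (adjusted p = 0.000779) after ligation and 0.31 (adjusted p = 0.000921) with cells against sham. Adam17, which releases tumour necrosis factor and ligands of the EGF receptor, was at 50.2, 52.7 and 51.9 CPM in sham, 57.7, 53.7 and 56.5 CPM after ligation and 62.1, 64.8 and 58.9 CPM with cells. The groups did not overlap but lay close together. After ligation its log2 fold change was 0.11 (adjusted p = 0.222), and with cells against sham 0.26 (adjusted p = 0.0046), the only one of its differences past the threshold. With library totals in place of TMM factors its difference after ligation passed as well (adjusted p = 0.00162). Adam15, a membrane ADAM of endothelium and other cells, fell against sham in both groups of ligated hearts. It was at 126, 138 and 131 CPM in sham, 87.6, 102 and 105 CPM after ligation and 90.1, 89.3 and 92.2 CPM with cells. Sham libraries lay above the rest, with log2 fold changes of -0.42 (adjusted p = 4.85e-05) after ligation and -0.54 (adjusted p = 1.88e-06) with cells against sham. The 6 endothelial markers fell beside it after ligation, 6 of 6, with none at 0. They summed to 1891 to 1996 CPM in sham, 1249 to 1329 CPM after ligation and 1356 to 1394 CPM with cells, and their part in the level of Adam15 was not tested. An opposite-strand gene overlaps 20.6% of the exon bases of Adam15.

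The membrane ADAMs without an active site, Adam11, Adam22 and Adam23, are known as neuronal receptors for secreted LGI proteins. Adam22 fell after ligation, from 6.76, 9.39 and 7.14 CPM in sham to 3.62, 3.62 and 3.38 CPM, and stood at 4.4, 5.13 and 4.61 CPM with cells. The 3 groups did not overlap, and sham replicate 2 stood above the other 2 sham libraries. Its log2 fold change was -1.14 (adjusted p = 0.000608) after ligation, 0.42 (adjusted p = 0.337) with cells against ligation and -0.72 (adjusted p = 0.0127) with cells against sham, where the call was lost without sham replicate 2 (adjusted p = 0.083). Adam23 was at 7.12, 7.58 and 6.67 CPM in sham, 10.01, 6.95 and 9.5 CPM after ligation and 10.2, 12.2 and 13.4 CPM with cells. Ligation replicate 2 lay within the sham range, and the cell libraries lay above all others. Adam23 passed with cells against sham at 0.74 (adjusted p = 0.0027), and its log2 fold change was 0.45 (adjusted p = 0.123) against ligation. After ligation it was 0.30 (adjusted p = 0.249), which passed with library totals alone (adjusted p = 0.0466). Adam11 did not pass in any comparison, with group means of 9.07 ± 0.295, 11.1 ± 2.02 and 12.2 ± 3.4 CPM (SD, n = 3).

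Among the proteoglycan-cleaving ADAMTS genes, Adamts8 (ENSMUSG00000031994, chr9:30942562-30963838), the member whose zinc site carries a serine codon and a protease known for inhibiting vessel growth, rose in all 3 comparisons. Its levels were 2.85, 2.14 and 3.65 CPM in sham, 6.39, 7.67 and 5.63 CPM after ligation and 18.2, 19.98 and 22.8 CPM with cells. No 2 groups overlapped, and sham was lowest and cells highest. It rose 2.26-fold after ligation (log2 fold change 1.17 ± 0.242 (SE), adjusted p = 0.000604). With cells it was 3.09-fold above ligation (log2 fold change 1.63 ± 0.173 (SE), adjusted p = 1.41e-06) and 6.98-fold above sham (log2 fold change 2.80 ± 0.203 (SE), adjusted p = 6.28e-10). These 3 calls held without each library in turn and under every other setting tried. Opposite-strand gene Gm29724 overlaps 10.6% of its exon bases.

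Markers of cardiac atrium (Sln, Myl7, Myl4) also rose with cells against ligation, 3 of 3, and summed to 405 to 449 CPM in sham, 277 to 316 CPM after ligation and 974 to 1021 CPM with cells. After ligation all 3 fell, while Adamts8 rose. No gene of the list was at 0 in all libraries. The part of atrial tissue in the level of Adamts8 was not tested. Its neighbour Adamts15, 20.1 kb away on chromosome 9, had group means of 12.8 ± 2.86, 15 ± 0.438 and 15.6 ± 1.13 CPM (SD, n = 3) and passed in no comparison (adjusted p = 0.273, 0.861 and 0.144).

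**Figure D4:**
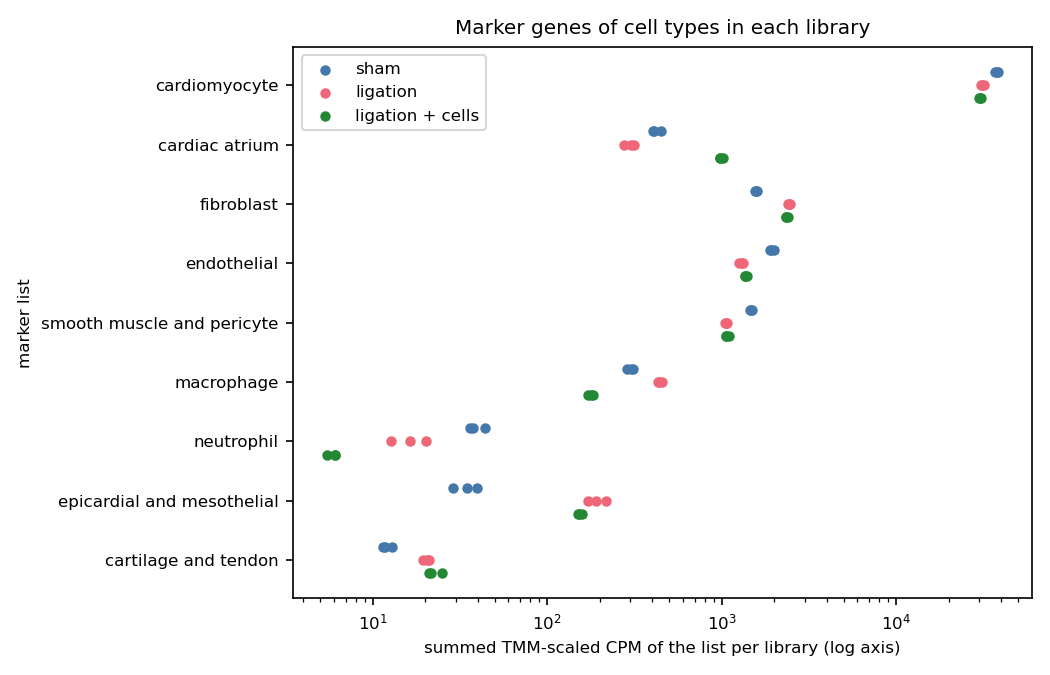
Summed TMM-scaled CPM of each cell type's marker genes, 1 point per library on a log axis. The macrophage list is highest after ligation and lowest with cells, and the atrial list is highest with cells.

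Adamts9 (ENSMUSG00000030022, chr6:92772699-92943492), which cuts versican, went the other way with cells. It was at 38.1, 38.4 and 35.2 CPM in sham, 43, 45.1 and 44.9 CPM after ligation and 24.7, 32 and 25.9 CPM with cells. The groups did not overlap, with ligation highest and cells lowest. The macrophage markers had the same order of groups, with sums of 287 to 309 CPM in sham, 432 to 457 CPM after ligation and 172 to 183 CPM with cells, and their part in the level of Adamts9 was not tested. With cells it was 1.61 times lower than after ligation (log2 fold change -0.69 ± 0.0953 (SE), adjusted p = 4.46e-05) and 1.35 times lower than in sham (log2 fold change -0.43 ± 0.0981 (SE), adjusted p = 0.00133). The small rise after ligation (log2 fold change 0.26 ± 0.0938 (SE), adjusted p = 0.0365) lost its call with DESeq2 (adjusted p = 0.102), with libraries of one header stem summed (0.11), and without any 1 of the 3 sham libraries (adjusted p = 0.0562, 0.0575 and 0.127) or the 3 ligation libraries (0.0506, 0.0922 and 0.121). Opposite-strand genes overlap 12% of its exon bases.

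Adamts1 (ENSMUSG00000022893, chr16:85793827-85803113), a versican- and aggrecan-cleaving enzyme, was at 65.3, 61.8 and 67.1 CPM in sham, 86.3, 69.9 and 74.9 CPM after ligation and 90.2, 81.6 and 86.4 CPM with cells. Sham libraries lay below all others, and ligation replicate 1 lay among the cell libraries. Its log2 fold change was 0.24 ± 0.0775 (SE, adjusted p = 0.0178) after ligation, a call lost without ligation replicate 1 (adjusted p = 0.0956) or sham replicate 2 (0.0717). With cells it was 0.41 (adjusted p = 0.000197) against sham and 0.17 (adjusted p = 0.178) against ligation, the latter passing without ligation replicate 1 (adjusted p = 0.0356). Adamts5, an aggrecanase 53.1 kb away on chromosome 16, had log2 fold changes of -0.23 (adjusted p = 0.06) after ligation and -0.23 (adjusted p = 0.0584) with cells against sham and did not pass.

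Adamts20, a versicanase with an asparagine codon like that of Adamts1, had the lowest level per kb of the tested members in sham. It was at 0.89, 1.32 and 0.635 CPM in sham, 3.41, 1.59 and 1.12 CPM after ligation and 4.68, 4.16 and 2.3 CPM with cells. Sham and cell libraries did not overlap, and the ligation libraries reached into both. Against sham it was 3.88-fold higher with cells (log2 fold change 1.96 ± 0.458 (SE), adjusted p = 0.00176). Against ligation it was 0.97 (adjusted p = 0.143), which passed without ligation replicate 1 (adjusted p = 0.0422). It entered the test through the cell group, the only one in which all 3 libraries reached the filter's minimum. Adamts4, an aggrecanase, was at group means of 1.34 ± 0.233, 1.96 ± 0.78 and 1.42 ± 0.157 CPM (SD, n = 3) and passed in no comparison.

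Of the procollagen-trimming enzymes, which remove the amino-terminal propeptides of fibrillar collagens, Adamts2 (ENSMUSG00000036545, chr11:50602084-50807573) rose after ligation. It was at 45.6, 48.9 and 46.5 CPM in sham, 104, 106 and 110.4 CPM after ligation and 92.3, 95.7 and 97.5 CPM with cells. The groups did not overlap, with ligation highest. The rise was 2.28-fold (log2 fold change 1.19 ± 0.0649 (SE), adjusted p = 9.99e-12), and with cells it was 2.02-fold above sham (log2 fold change 1.02 ± 0.0649 (SE), adjusted p = 9.16e-11). The difference between cells and ligation was -0.17 (adjusted p = 0.0817), and passed with library totals alone (adjusted p = 0.0463). Adamts3 and Adamts14 did not pass in any comparison. After ligation their log2 fold changes were 0.20 (adjusted p = 0.677) and -0.69 (adjusted p = 0.0878), and with cells against ligation -0.74 (adjusted p = 0.215) and 0.39 (adjusted p = 0.513). Fibroblast markers, summed over 6 genes, were 1562 to 1603 CPM in sham, 2394 to 2469.5 CPM after ligation and 2334 to 2406 CPM with cells. In ligation against sham 4 of the 6 rose and Pdgfra fell, at -0.20 (adjusted p = 0.049), and with cells against ligation Postn alone passed, at -0.25 (adjusted p = 0.00374). None was at 0, and their part in the levels of Adamts2 and Adam12 was not tested. Epicardial and mesothelial markers rose after ligation too, 4 of 4, and summed to 29 to 39.7 CPM in sham, 172 to 216 CPM after ligation and 149.5 to 158 CPM with cells, and their part was likewise not tested.

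Among the other ADAMTS genes, Adamts7, which cuts cartilage oligomeric matrix protein, was the only one that passed. It was at 22.6, 29.2 and 24 CPM in sham, 15.8, 14 and 20.0 CPM after ligation and 15, 14.3 and 16.7 CPM with cells. Sham lay above both other groups, which overlapped, with log2 fold changes of -0.59 ± 0.141 (SE, adjusted p = 0.00216) after ligation and -0.72 ± 0.141 (SE, adjusted p = 0.000337) with cells against sham. Smooth muscle and pericyte markers summed to 1450.1 to 1498 CPM in sham, 1044 to 1072 CPM after ligation and 1060.3 to 1105 CPM with cells, with Tagln at only 1.41 CPM in sham. After ligation 3 of 5 tested fell and Cspg4 rose, at 0.30 (adjusted p = 0.00345), and their part in the level of Adamts7 was not tested. Its relative Adamts12 had log2 fold changes of 0.34 (adjusted p = 0.401) and 0.08 (adjusted p = 0.907) after ligation and with cells against ligation. Adamts10 and Adamts6, which act on fibrillin microfibrils, and Adamts19 passed in no comparison. Adamts10, at group means of 62.3 ± 7.13, 65.6 ± 7.91 and 63.3 ± 3.54 CPM (SD, n = 3), was the most highly counted of them. Adamts17 did not enter the test. In a fit with no filter on low counts its adjusted p was 0.894 after ligation.

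The Adamtsl genes code for matrix proteins with no protease domain. Adamtsl2 (ENSMUSG00000036040, chr2:27079379-27108981), which binds fibrillin and latent TGF-beta binding protein, rose 3.22-fold after ligation (log2 fold change 1.69 ± 0.11 (SE), adjusted p = 1.49e-10), the second largest change of a member in that comparison. It was at 22.1, 29.2 and 22.5 CPM in sham, 70.7, 77.3 and 88.6 CPM after ligation and 60.1, 74.6 and 69 CPM with cells. All sham libraries were far below the others, and ligation and cell libraries overlapped. The fibroblast and the epicardial and mesothelial sums were likewise lowest in sham and highest on average after ligation, and their part in the level of Adamtsl2 was not tested. With cells it was 2.76-fold above sham (log2 fold change 1.46 ± 0.111 (SE), adjusted p = 1.25e-09) and differed from ligation by -0.22 (adjusted p = 0.159). Adamtsl1 was at 5.87, 5.6 and 7.3 CPM in sham, 13, 17.7 and 11.6 CPM after ligation and 16.3, 15.3 and 19.7 CPM with cells. Its log2 fold change was 1.17 (adjusted p = 6.77e-05) after ligation and 1.44 (adjusted p = 3.06e-06) with cells against sham, with sham below both groups. Adamtsl5, which binds fibrillin too, was at 95.4, 109.7 and 100.3 CPM in sham, 116, 109.7 and 126 CPM after ligation and 122, 116 and 126 CPM with cells. Sham and ligation libraries overlapped, and the cell libraries lay above sham. Its rise after ligation was small (log2 fold change 0.21 ± 0.069 (SE), adjusted p = 0.023) and lost its call without ligation replicate 3 (adjusted p = 0.209), sham replicate 1 (0.118) or sham replicate 3 (0.0681). With cells against sham it was 0.26 (adjusted p = 0.00508). Adamtsl4 and Adamtsl3 passed in no comparison, with log2 fold changes of 0.22 (adjusted p = 0.0853) and -0.38 (adjusted p = 0.0933) after ligation.

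Genes that control these enzymes or are cut by them were read from 3 lists. Of 19 tested inhibitors, maturation enzymes and shedding partners, 8 rose and 2 fell after ligation, and 0 rose and 2 fell with cells against ligation, with list medians of 0.18 and -0.12 on the log2 scale beside 0.01 and 0.00 over all genes. Timp1, an inhibitor of many metalloproteases, went from 11.1 ± 1.19 CPM (SD, n = 3) in sham to 59.6 ± 5.3 after ligation and 40.3 ± 0.656 with cells. That is a rise of 2.43 (adjusted p = 2.31e-13) on the log2 scale, and with cells it fell by 0.57 against ligation (adjusted p = 0.000102). Timp2 rose by 1.003 (adjusted p = 1.13e-12). Timp3, the TIMP that inhibits Adam17, Adamts4 and Adamts5, rose by 0.28 (adjusted p = 7e-04) after ligation and was at 0.12 (adjusted p = 0.22) with cells against ligation. Timp4, a TIMP of the heart, fell in both comparisons, from 156 ± 8.08 to 74.5 ± 3.34 to 52 ± 2.49 CPM, at -1.06 (adjusted p = 4.75e-11) and -0.52 (adjusted p = 2.43e-05). Tspan5 and Tspan17, which escort Adam10, rose by 0.83 (adjusted p = 0.000139) and 0.67 (adjusted p = 4.84e-06), while Tspan15, another such escort, was at -0.83 (adjusted p = 7.98e-06). Lrp1, which takes up ADAMTS enzymes from the matrix, rose by 0.70 (adjusted p = 2.89e-09). Furin, which activates the proenzymes, was at 0.18 (adjusted p = 0.0584). A2m, Tspan10 and Tspan33 were not tested.

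Of 25 tested substrates of membrane ADAMs, 12 rose and 3 fell after ligation, and 1 rose and 8 fell with cells against ligation. The list medians were 0.20 and -0.16. Of the 5 tested ligands of the EGF receptor in the list, 3 rose after ligation, Ereg by 2.48 (adjusted p = 0.00132), Tgfa by 1.71 (adjusted p = 0.000551) and Hbegf by 1.24 (adjusted p = 1.73e-08), while Btc was at -0.56 (adjusted p = 0.455) and Egf at -0.18 (adjusted p = 0.76). With cells against ligation Hbegf was at 0.06 (adjusted p = 0.782). Il6ra, the interleukin-6 receptor chain shed by Adam10 and Adam17, rose by 0.86 (adjusted p = 0.00362) and fell with cells by 0.84 on the log2 scale (adjusted p = 0.0132). Mertk and Notch2 also fell with cells, at -0.67 (adjusted p = 0.0163) and -0.62 (adjusted p = 0.000845). Dll1, a Notch ligand, was the one that rose with cells, by 0.69 (adjusted p = 0.0211), and in ligated hearts it was at -0.66 (adjusted p = 0.00964) against sham. Cdh5, an endothelial cadherin cut by Adam10, was at -0.47 (adjusted p = 1.45e-07) after ligation, and it also stands in the endothelial list. Macrophages carry Mertk and Il6ra too, and all 6 macrophage markers fell with cells against ligation as well. Their part in these levels was not tested.

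Of 16 tested substrates of ADAMTS enzymes, 14 rose and 1 fell after ligation, and 1 rose and 3 fell with cells against ligation, with list medians of 0.91 and -0.07. With cells against sham 9 partners rose and 3 fell, 8 ADAM substrates rose and 5 fell, and 12 ADAMTS substrates rose and 1 fell. Over all genes tested, 38.2%, 9.87% and 40.9% passed in the 3 comparisons. Comp, cut by Adamts7 and Adamts12, rose most, from 16.4 ± 1.75 to 267 ± 9.63 CPM (SD, n = 3), at a log2 fold change of 4.02 (adjusted p = 5.01e-19), while Adamts7 fell. Fn1 rose by 1.64 (adjusted p = 2.8e-15) and Col3a1 by 1.38 (adjusted p = 1.74e-16). The procollagen substrates of Adamts2, Col1a1 and Col1a2, rose by 1.18 (adjusted p = 2.48e-12) and 1.29 (adjusted p = 4.93e-15). Vcan, the gene for versican, rose by 0.52 (adjusted p = 2.23e-05) and was at -0.04 (adjusted p = 0.802) with cells. Thbs1 was the one that rose with cells too, by 0.63 (adjusted p = 6.17e-06), and Thbs2 the one that fell after ligation, at -0.35 (adjusted p = 0.00402). With cells against ligation Vwf, Bgn and Col3a1 fell, at -0.34 (adjusted p = 0.0012), -0.27 (adjusted p = 8.18e-05) and -0.23 (adjusted p = 0.000314). Col1a1 and Dcn are in the fibroblast list as well.

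**Figure D5:**
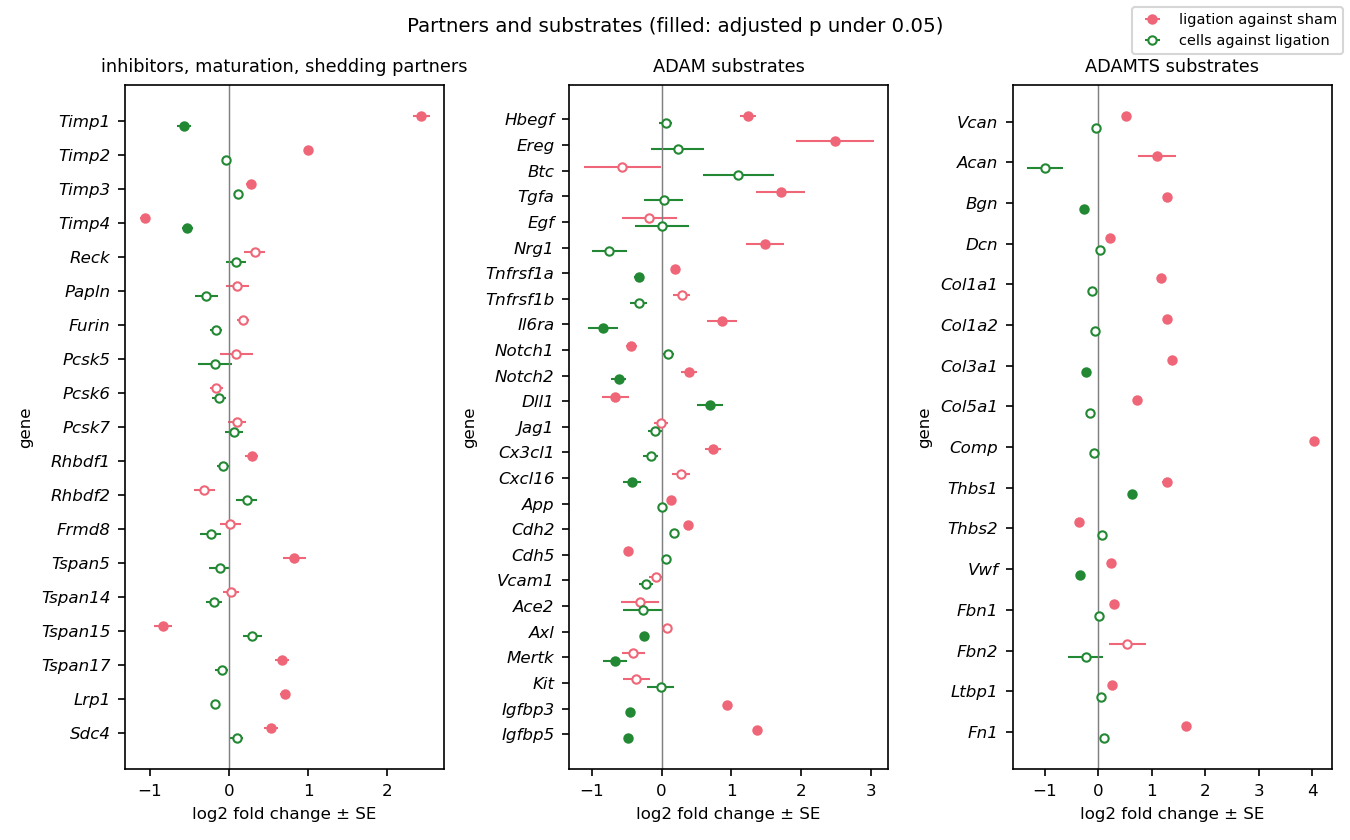
Log2 fold changes with standard errors (bars) for the tested inhibitors and partners, ADAM substrates and ADAMTS substrates, after ligation against sham and with cells against ligation, filled where the adjusted p was under 0.05. Comp and Timp1 lie far right after ligation, and most filled points with cells lie left of 0.

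Promoter windows were read for members that differed between hearts with cells and ligated hearts, since the implanted cells are named for FOXO3, a forkhead factor. RefSeq windows of the 250 bases before the start (GRCm38.p6) were in the table for 31 of the 57 members, among them Adam8, Adamts9 and Adam19. Of 33 windows checked, 21 were followed by 25 bases found in a GENCODE transcript of the gene. The Adamts9 window ends upstream of the GENCODE start of that gene. No window was used for Adamts8 and Adam9. Of 3 starts listed for Adam19, the one nearest to the GENCODE start is shown. Capitals mark matches to the forkhead letters TGTTTAC, the AP-1 letters TGANTCA, the GC box GGGCGG and the TATA box TATAAA, searched on both strands.
Adam8 (chr7:139992563-139992812, minus strand): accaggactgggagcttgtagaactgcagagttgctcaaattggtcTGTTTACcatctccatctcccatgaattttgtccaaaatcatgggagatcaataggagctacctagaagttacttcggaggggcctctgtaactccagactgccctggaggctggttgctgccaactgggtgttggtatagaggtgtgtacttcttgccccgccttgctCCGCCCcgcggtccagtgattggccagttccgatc
Adamts9 (chr6:92943535-92943784, minus strand): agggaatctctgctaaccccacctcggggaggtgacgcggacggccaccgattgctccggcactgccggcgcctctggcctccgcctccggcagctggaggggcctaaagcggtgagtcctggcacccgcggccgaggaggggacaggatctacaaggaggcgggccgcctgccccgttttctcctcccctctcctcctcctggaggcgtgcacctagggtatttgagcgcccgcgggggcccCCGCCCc
Adam19 (chr11:46055734-46055983, plus strand): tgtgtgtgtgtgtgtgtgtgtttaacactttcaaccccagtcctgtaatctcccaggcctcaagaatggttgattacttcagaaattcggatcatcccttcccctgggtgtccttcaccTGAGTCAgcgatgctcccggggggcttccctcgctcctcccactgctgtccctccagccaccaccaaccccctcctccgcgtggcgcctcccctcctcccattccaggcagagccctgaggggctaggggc
The Adam8 window holds 1 forkhead match and 1 GC box, the Adamts9 window 1 GC box, and the Adam19 window 1 AP-1 match. Another Adam19 start has 1 forkhead match. Of all 32851 windows of this length, 3.17% hold the forkhead letters, 6.75% the AP-1 letters, 32.7% the GC box and 12.4% the TATA box. A match describes letters in the window and no binding.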

How the data were processed

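RNA libraries of the infarct border zone were sequenced in 3 sham, 3 ligation and 3 ligation plus cell samples, and groups and replicate numbers came from the sample titles. The authors deposited unnormalized read counts for each gene in 1 file per library, and the genome build was mm10 per the submitters' processing notes. The aligner, counter, annotation release and strand setting are not given in the sources used here. Lines that name no gene stayed out of library sizes (reads outside features 4.14 to 4.91%, ambiguous reads 8.09 to 8.72% of all lines' reads). Libraries held 4549268 to 7515052 gene counts, with a lower mitochondrially encoded share in every ligated heart library (12.5 to 14.3%) than in sham (19.1 to 19.9%).

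Symbols, positions and exon lengths came from GENCODE M21 (GRCm38). Counts were fitted in R 4.3.3 with edgeR 4.0.16 (filterByExpr, TMM factors, 1 quasi-likelihood model with a mean per group over all 9 libraries, 6 residual degrees of freedom). Two-sided p-values were adjusted over the 13825 genes tested by the Benjamini-Hochberg method and called under 0.05. CPM values are TMM-scaled, the SE of a log2 fold change is its size over the square root of F, and SDs are over 3 libraries. Of the tested members, 26 reached the filter's minimum in all 9 libraries and 6 (Adam12, Adam8, Adamts20, Adamts3, Adam1a, Adamts4) in fewer. The fit was run on simulated counts in which few genes changed and all genes shared a common spread. These data differ in both, so that run checks the working of the fit and not the calls made here.

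Full values were given for Adamts1, Adam12 and the first 12 called members per comparison by size of change. Adam17 and Adamtsl5, which rank lower, were given in full too, and other members by group mean, fold change or range. From the partner lists came the called genes with the largest changes and known substrates or inhibitors of members. Members and lists were chosen with earlier results of these data known. Alternatives were library totals, DESeq2 size factors, DESeq2 1.42.0, no filter, a mean of at least 1 CPM, 2-group fits, a replicate block and leaving out each library. Summing libraries whose headers share a stem was chosen after seeing the data. The floor of 3 counts covers counting error only, because the reads carry no molecular identifiers. Sequence of the implanted cells was not analysed here. Plots used matplotlib 3.10.9. Results of 2 marker lists are not reported here.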

Additional observations from a re-analysis of the deposited data

How the results depend on the processing

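The number of members called stayed within 1.5 times of its reported value under every alternative, leaving out each library included: 13 to 20 after ligation, 4 to 6 with cells against ligation and 18 to 21 with cells against sham. Library totals alone gave 4966 higher and 1346 lower genes after ligation, and 4612 higher and 1698 lower with cells against sham. DESeq2 called 4488, 1058 and 4786 genes in the 3 comparisons, and summed header stems 4571, 1101 and 5409. Without each library in turn, the genes higher with cells against ligation ranged from 364 to 587, and the lowest values came without ligation replicate 2 or 3 (364 and 373). The members higher there ranged from 1 (without cell replicate 3) to 4 (without ligation replicate 1), and the members lower after ligation from 3 to 5, the highest without sham replicate 2. Those fits were read out for the 19 members called in at least 1 comparison, and 4 of their log2 fold changes crossed 0, none of them past the threshold: Adam10 with cells against ligation (-0.0486 to 0.0372), Adam19 after ligation (-0.0134 to 0.117), Adamts7 with cells against ligation (-0.248 to 0.0524) and Adamtsl5 with cells against ligation (-0.000758 to 0.111). The replicate block called 5134, 1230 and 5511 genes and 15, 5 and 19 members, and changed no call of a member reported. Deviations of libraries with the same number correlated at -0.121 to 0.140 over 9416 genes. No pairing by number was seen, though 3 libraries a group are too few to exclude one. Members near 1 CPM in sham, such as Adam8, Adamts20 and Adamts4, rest on few counts there. Adam12 had 5, 19 and 14 counts in the sham libraries.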
